A study of Homo sapiens with 8 samples.

Results

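CD3E, CD1A, CD1C, CD1D, FCGR2B, ITGAM, LY86 and MILR1 were listed together as T cell, CD1 and myeloid surface genes. Not all are foreign to B lineage cells: FCGR2B is also a B cell gene and CD1C is found on some B cells. LY86 encodes a secreted protein. Their transcripts were measured in human plasma cell cancer lines that carried extra CTBP2. The listed genes are 8 of the 25906 genes in the table, and were chosen by their FPKM in CTBP2 against empty vector libraries, several of them being higher with CTBP2 in 1 line. These values are therefore given as a description without a test, and only other genes are tested. The lists of other genes were also chosen with earlier results known, so their counts beside all genes are a description. Messenger RNA was sequenced 72 hours after lentiviral transduction of NCI-H929 or MM.1S cells, established multiple myeloma lines, with a vector carrying CTBP2 or with an empty vector. The 4 groups were NCI-H929 with CTBP2, NCI-H929 with empty vector, MM.1S with CTBP2 and MM.1S with empty vector, each with 2 libraries that the study describes as biological duplicates. All 8 cultures had been transduced with a lentivirus, and the promoter that drives CTBP2 is not given in the sources used here. Levels are FPKM, fragments scaled to transcript length and library total, so that genes compare per length.

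The line of each library was read from 2 genes that mark the lines, CCND2 above 10 FPKM for MM.1S and FGFR3 above 10 FPKM for NCI-H929. Read so, 2 CTBP2 libraries went against their labels. The library labelled as MM.1S CTBP2 replicate 2 had FGFR3 at 22.2 FPKM and CCND2 at 0.058 FPKM, and the library labelled as NCI-H929 CTBP2 replicate 2 had CCND2 at 60.7 FPKM and FGFR3 at 0.04 FPKM. The value nearest the threshold from above was FGFR3 at 13.6 FPKM in NCI-H929 CTBP2 replicate 1, and the highest value under it was 0.063 FPKM. The name NCI-H929 CTBP2 libraries is used for NCI-H929 CTBP2 replicate 1 and the library labelled as MM.1S CTBP2 replicate 2, and the name MM.1S CTBP2 libraries for MM.1S CTBP2 replicate 1 and the library labelled as NCI-H929 CTBP2 replicate 2. Fold changes of the 8 genes are also given from the 6 libraries without both of those and with the lines as labelled. For other genes the calls that end in either fit are named. CTBP2 itself followed the vector labels, at 1621 to 5884 FPKM in the 4 CTBP2 libraries and 0.148 to 0.213 FPKM in the 4 empty vector libraries. It was at 5884 and 3427 FPKM in NCI-H929 CTBP2 libraries, and at 2145 and 1621 FPKM in MM.1S CTBP2 libraries. Where responses of the lines are set side by side, line and CTBP2 level therefore cannot be told apart. The estimated depth, read from the spacing of low values, was 16000000 to 21000000 fragments per library. The 7 plasma cell markers, all over 1 FPKM in some library, summed to 1580 to 2000 FPKM in NCI-H929 CTBP2 libraries against 1870 to 2450 FPKM with empty vector, and to 1140 to 1230 FPKM in MM.1S CTBP2 libraries against 1530 to 1710 FPKM with empty vector. Among them IRF4, a plasma cell transcription factor, fell by 1.17 on the log2(FPKM + 1) scale in both lines together (limma adjusted p = 0.00166). TNFRSF17, the receptor BCMA, fell by 0.85 (limma adjusted p = 0.00578, with the lines as labelled 0.357). The other 5 did not pass, among them CD38 at 0.85 (limma adjusted p = 0.0574) and SDC1 at 0.04 (0.896). In NCI-H929 CD38 was higher with CTBP2 (1.37, limma adjusted p = 0.0297), at 30.4 and 54.9 FPKM against 12.6 and 18.4 FPKM. That call ended in the 6 libraries, as labelled (0.371), and without either NCI-H929 empty vector library or the library labelled as MM.1S CTBP2 replicate 2.

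CTBP2 is a corepressor that is brought to DNA by sequence-specific repressors and recruits enzymes that modify chromatin. Plasma cells end the B cell lineage and switch off much of its earlier programme, and genes of other blood lineages are normally silent in them. CD3E is a subunit of the T cell receptor complex, CD1 molecules show lipid antigens to T cells, FCGR2B is the inhibitory receptor for IgG, and ITGAM is the alpha chain of the myeloid integrin Mac-1. LY86 encodes MD-1, the secreted partner of the Toll-like receptor relative CD180, and MILR1 encodes Allergin-1, an inhibitory receptor of mast cells and other myeloid cells.

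Promoters are shown for 4 of the genes because the factors that recruit CtBP or act in the myeloid lineage bind known letters, and because the RefSeq starts of these 4 lie within 51 bases of a GENCODE start. Of the 8 genes, 6 had a promoter in the RefSeq table (build GRCh38.p14), and CD3E and MILR1 had none. Each window is the 250 bases before the RefSeq start, written 5′ to 3′ on the gene's strand, and positions count back from the base before the start as -1. Capitals mark matches on either strand to CACCTG, the E-box that ZEB1, a repressor that recruits CtBP, can bind, to CACCC, a core bound by KLF factors, or to GAGGAA, a core bound by PU.1.
CD1D (chr1:158179697-158179946, plus strand): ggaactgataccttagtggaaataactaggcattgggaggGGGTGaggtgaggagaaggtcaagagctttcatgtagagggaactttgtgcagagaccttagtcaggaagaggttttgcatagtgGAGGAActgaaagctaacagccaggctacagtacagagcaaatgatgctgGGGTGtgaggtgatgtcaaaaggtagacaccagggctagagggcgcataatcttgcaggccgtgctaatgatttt
FCGR2B (chr1:161662893-161663142, plus strand): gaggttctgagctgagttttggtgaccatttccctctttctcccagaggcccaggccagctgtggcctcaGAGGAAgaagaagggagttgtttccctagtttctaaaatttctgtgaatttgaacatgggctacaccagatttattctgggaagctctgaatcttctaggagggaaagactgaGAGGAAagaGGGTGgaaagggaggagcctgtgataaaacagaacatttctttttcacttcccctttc
ITGAM (chr16:31259725-31259974, plus strand): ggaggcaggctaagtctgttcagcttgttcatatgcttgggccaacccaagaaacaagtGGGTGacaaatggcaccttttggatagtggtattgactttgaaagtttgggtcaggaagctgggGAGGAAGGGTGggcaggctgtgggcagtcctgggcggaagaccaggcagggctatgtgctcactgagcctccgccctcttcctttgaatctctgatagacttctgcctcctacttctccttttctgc
LY86 (chr6:6588470-6588719, plus strand): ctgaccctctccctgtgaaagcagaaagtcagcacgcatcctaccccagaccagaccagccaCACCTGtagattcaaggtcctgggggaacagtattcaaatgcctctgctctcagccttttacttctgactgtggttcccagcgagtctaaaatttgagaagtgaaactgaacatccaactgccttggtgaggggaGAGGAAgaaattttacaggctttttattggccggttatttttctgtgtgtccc

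GAGGAA was present in 5 of the 6 windows, those of CD1C, CD1D, FCGR2B, ITGAM and LY86, and in 23.6% of all 35116 windows of this length. In FCGR2B it stood at -180 to -175 and at -67 to -62, and in LY86 at -53 to -48. CACCTG was present in CD1C and LY86 and in 17.5% of all windows. CACCC was present in CD1D, FCGR2B and ITGAM and in 54.7% of all windows, and in ITGAM 1 of its matches directly follows GAGGAA. None of the 3 motifs was found in the CD1A window. The starts used for CD1A and CD1C lie 287 and 137 bases from the nearest GENCODE start, so both windows are less certain. A match is a description of the letters, and binding was not measured.

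In NCI-H929 all 8 genes were higher in both CTBP2 libraries than in both empty vector libraries, a pattern seen in 37% of the genes tested, and in MM.1S 6 of the 8 were, against 31.6%. The genes were listed from this contrast, so nothing is read from these counts. Of the 8 genes, 3 (CD3E, LY86 and MILR1) reached 1 FPKM in at least 2 empty vector libraries, and the other 5 passed the filter of 1 FPKM in 2 libraries only through CTBP2 libraries. FCGR2B was the 1 gene of the 8 with all 4 CTBP2 libraries above all 4 empty vector libraries, which held for 7.21% of genes.

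**Figure D1:**
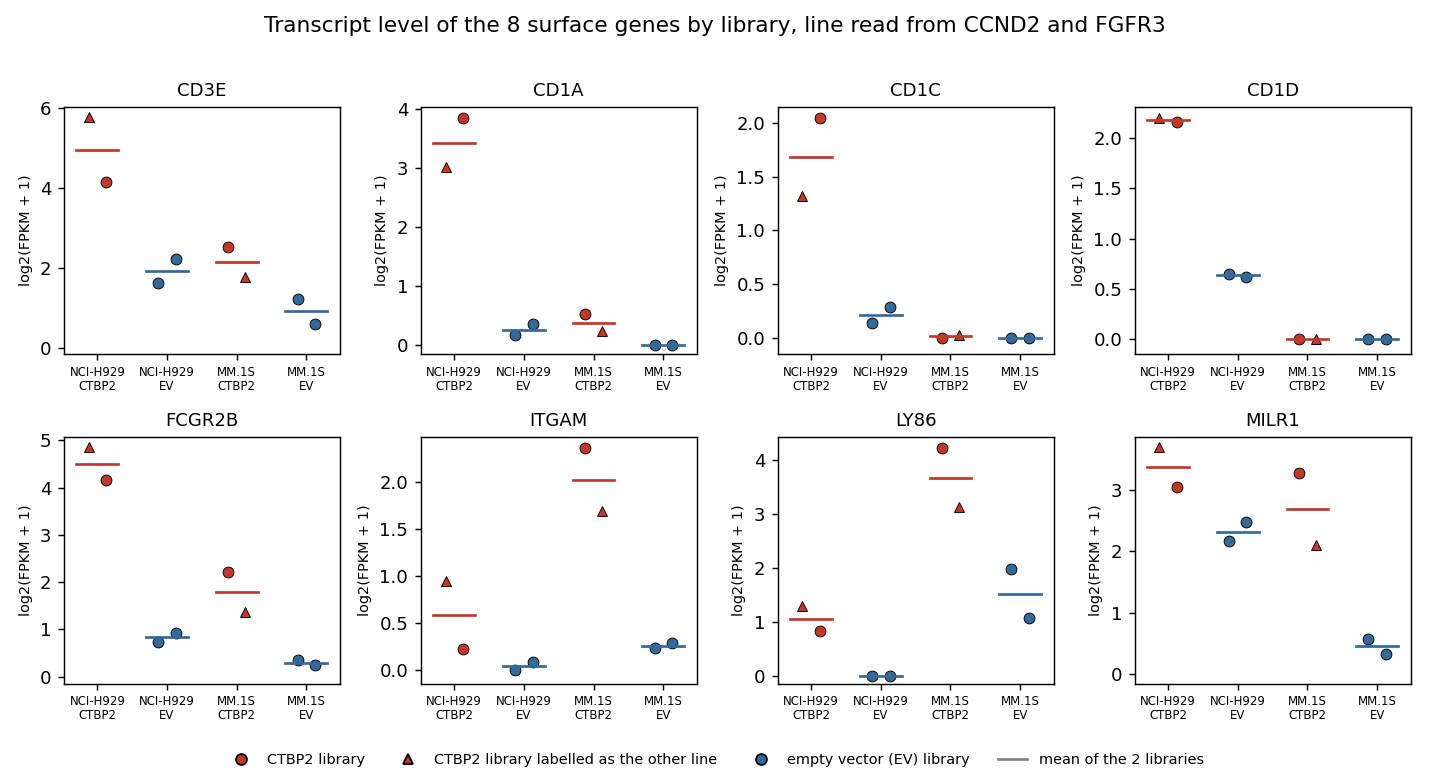
Level of each gene in the 8 libraries on the log2(FPKM + 1) scale, with CTBP2 libraries in red, empty vector (EV) libraries in blue, a line at each group's mean and triangles for the 2 CTBP2 libraries labelled as the other line; each panel has its own axis. CD3E, CD1A and FCGR2B peaked in NCI-H929 CTBP2 libraries, and ITGAM and LY86 in MM.1S CTBP2 libraries.

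CD3E had the highest level of the 8 genes in any library. In NCI-H929 it was at 16.7 FPKM in CTBP2 replicate 1 and 53.1 FPKM in the library labelled as MM.1S CTBP2 replicate 2, against 2.1 and 3.65 FPKM in the empty vector libraries. Both CTBP2 libraries lay above both empty vector libraries, but they differed from each other by 3.19 times. The means were 34.9 ± 25.8 FPKM with CTBP2 and 2.88 ± 1.1 FPKM with empty vector (SD, n = 2 each), a ratio of 12.1 and a log2 fold change of 3.02 (SE 0.50). Fold changes here are on the log2(FPKM + 1) scale, which understates those of low genes. In MM.1S, CD3E was at 4.76 FPKM in CTBP2 replicate 1 and 2.44 FPKM in the library labelled as NCI-H929 CTBP2 replicate 2, against 1.33 and 0.527 FPKM in the empty vector libraries. The groups did not overlap there either, and the log2 change was 1.24 (SE 0.50). With the 6 libraries the values were 2.22 (SE 0.33) in NCI-H929 and 1.61 (SE 0.33) in MM.1S, and with the lines as labelled 1.04 (SE 1.17) and 3.22 (SE 1.17).

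The other chains of the receptor complex that were listed, CD3D, CD3G and CD247, stayed under 1 FPKM in all libraries. CD3D and CD3G, the other CD3 chains and its neighbours in the genome, peaked at 0.214 and 0.163 FPKM, and LCK, the kinase that starts T cell receptor signalling, at 0.0609 FPKM. CD247, the zeta chain, was at 0.308 and 0.331 FPKM in NCI-H929 CTBP2 libraries and listed at 0 in both NCI-H929 empty vector libraries. In MM.1S it was at 0.441 and 0.866 FPKM with CTBP2 and 0.444 and 0.703 FPKM with empty vector, so those groups overlapped. Of the 9 T cell markers, 8 stayed under 1 FPKM in all libraries, and the exception was TRAT1, an adaptor of the T cell receptor. The summed T cell markers were at 1.12 to 2.29 FPKM in NCI-H929 CTBP2 libraries, against 0.186 to 0.201 FPKM in its empty vector libraries. In MM.1S the sum was 7.24 to 8.09 FPKM with CTBP2 and 17 to 17.5 FPKM with empty vector. TRAT1 made up most of it, at 6.07 and 6.67 FPKM with CTBP2 and 16.4 and 16.6 FPKM with empty vector. TRAT1 was lower with CTBP2 in MM.1S (log2 fold change -1.25, limma adjusted p = 0.00534). That call ended as labelled (0.269), and without MM.1S CTBP2 replicate 1 or either MM.1S empty vector library. In both lines together TRAT1 did not pass (-0.63, limma adjusted p = 0.0587). LAT, another adaptor of the receptor, was at 3.98 and 5.46 FPKM in NCI-H929 CTBP2 libraries against 1.98 and 2.75 FPKM with empty vector, and at 11.8 and 14.7 FPKM in MM.1S CTBP2 libraries against 12.5 and 16.7 FPKM with empty vector. It did not pass in both lines together (log2 fold change 0.32, limma adjusted p = 0.244); in NCI-H929 it passed (0.76, limma adjusted p = 0.0305), but not in the 6 libraries (0.153), as labelled (0.307), or without the library labelled as MM.1S CTBP2 replicate 2 or NCI-H929 empty vector replicate 1 (up to 0.188). What part other cells had in the level of CD3E was not tested. In these bulk samples fewer cells with a transcript and less of it per cell cannot be told apart.

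MPZL3, an adhesion gene near CD3E, was at 8.68 and 10.8 FPKM in NCI-H929 CTBP2 libraries and 2.81 and 3.6 FPKM in empty vector libraries. In MM.1S it was at 4 and 4.04 FPKM with CTBP2, against 2.65 and 2.21 FPKM with empty vector. Its groups were apart in both lines. MPZL2, nearer to CD3E, was at 0.0373 and 0.0172 FPKM in NCI-H929 CTBP2 libraries against 0.0415 and 0.08 FPKM with empty vector. In MM.1S MPZL2 was at 4.36 and 5.22 FPKM with CTBP2 against 3.17 and 2.94 FPKM with empty vector. Of the 18 listed genes of the T cell receptor complex and its signalling, 4 passed the filter and 1 rose with CTBP2 in both lines together, against 34.1% of all genes tested, 17.4% of them higher. It was the costimulatory receptor CD28, at 66.3 and 71.3 FPKM in NCI-H929 CTBP2 libraries, 43.3 and 48.6 FPKM in NCI-H929 empty vector libraries, 67.6 and 59.1 FPKM in MM.1S CTBP2 libraries and 55.2 and 46.9 FPKM in MM.1S empty vector libraries. CD28 rose by 0.44 on the log2 scale (SE 0.12, limma adjusted p = 0.0227). The call did not hold without replicate 1 of MM.1S with CTBP2, replicate 2 of MM.1S with empty vector, either NCI-H929 empty vector library or the library labelled as MM.1S CTBP2 replicate 2 (adjusted p up to 0.0741), nor with the lines as labelled (0.0944).

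**Figure D2:**
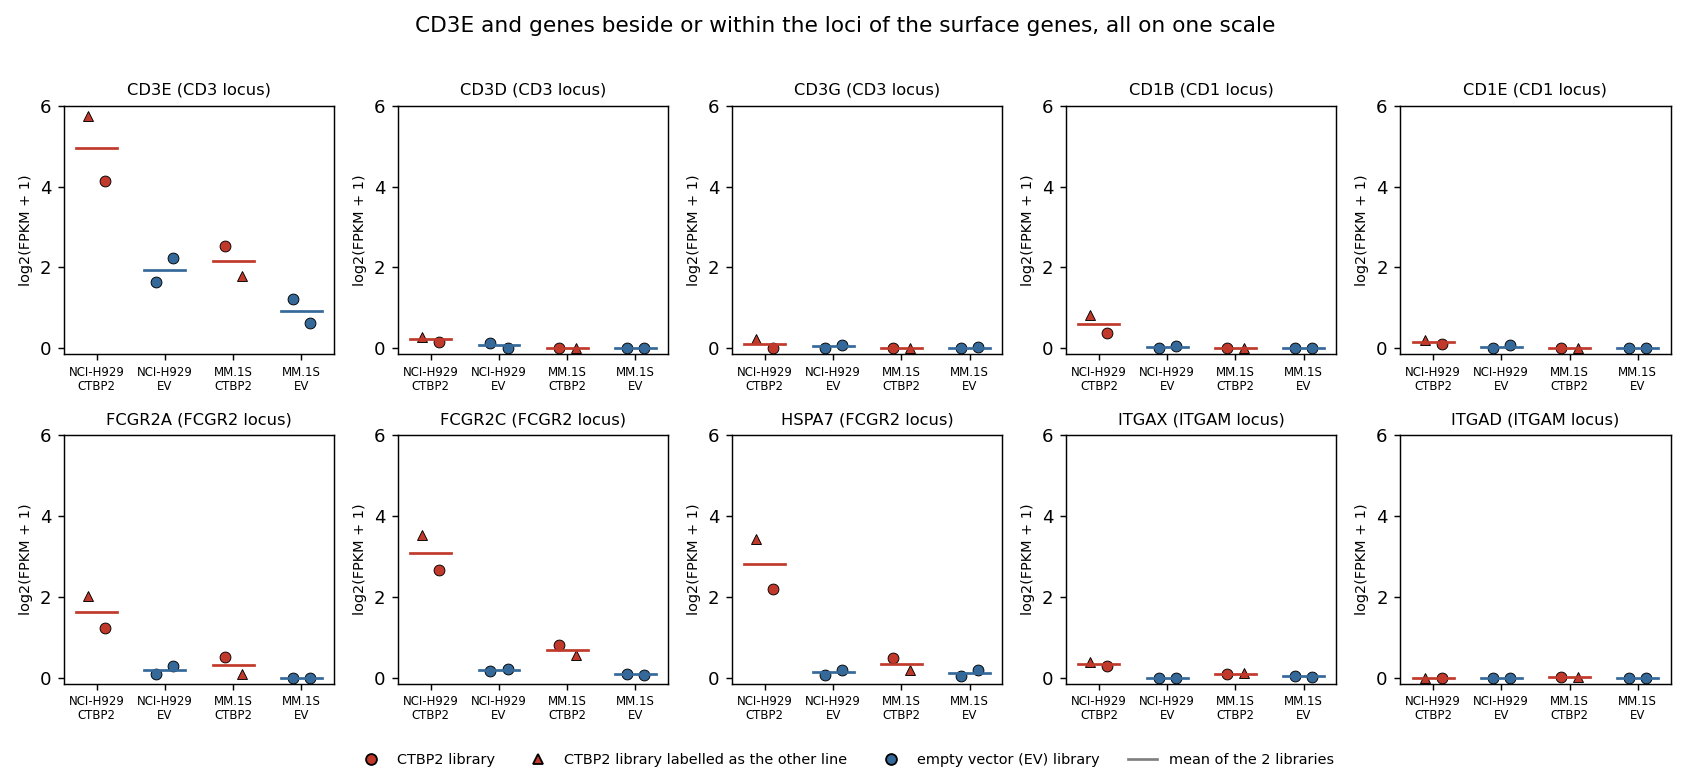
Level of CD3E and of genes beside or within the loci of the surface genes in the 8 libraries, log2(FPKM + 1), all panels on 1 axis, symbols as in the plot of the 8 genes. CD3D and CD3G stayed near 0 beside CD3E, while FCGR2C reached 10.5 FPKM and HSPA7 9.72 FPKM in the library labelled as MM.1S CTBP2 replicate 2.

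The 3 CD1 genes were near or at 0 outside the NCI-H929 CTBP2 libraries. CD1A, the CD1 molecule of Langerhans cells and cortical thymocytes, was at 13.3 FPKM in NCI-H929 CTBP2 replicate 1 and 7.08 FPKM in the library labelled as MM.1S CTBP2 replicate 2, against 0.126 and 0.28 FPKM with empty vector. Its means were 10.2 ± 4.37 FPKM with CTBP2 and 0.203 ± 0.109 FPKM with empty vector (SD, n = 2 each), a ratio of 50.1. This was the highest ratio of means among the 8 genes in either line where the empty vector mean was above 0. In MM.1S, CD1A was at 0.437 FPKM in CTBP2 replicate 1 and 0.183 FPKM in the library labelled as NCI-H929 CTBP2 replicate 2, and listed at 0 in both empty vector libraries, so no fold is given.

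CD1C, the CD1 molecule of blood dendritic cells and some B cells, was at 3.13 FPKM in NCI-H929 CTBP2 replicate 1 and 1.49 FPKM in the library labelled as MM.1S CTBP2 replicate 2, against 0.0995 and 0.222 FPKM with empty vector. CD1D, which shows lipids to natural killer T cells, was at 3.46 FPKM in NCI-H929 CTBP2 replicate 1 and 3.59 FPKM in the library labelled as MM.1S CTBP2 replicate 2, against 0.568 and 0.536 FPKM with empty vector. CD1D was the gene with the closest duplicates, its 2 CTBP2 libraries differing by 1.04 times. In MM.1S, CD1D was listed at 0 in all 4 libraries, and CD1C at 0 in 3 of them and at 0.0208 FPKM in the library labelled as NCI-H929 CTBP2 replicate 2. The log2 fold changes in NCI-H929 were 3.16 (SE 0.25) for CD1A, 1.47 (SE 0.22) for CD1C and 1.54 (SE 0.12) for CD1D. They were 3.57, 1.83 and 1.52 with the 6 libraries. With the lines as labelled they were 1.77 (SE 1.26), 0.82 (SE 0.72) and 0.44 (SE 0.90).

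The other genes of the CD1 cluster reached less. CD1B was at 0.285 FPKM in NCI-H929 CTBP2 replicate 1 and 0.757 FPKM in the library labelled as MM.1S CTBP2 replicate 2, against 0 and 0.044 FPKM with empty vector, and CD1E peaked at 0.141 FPKM. B2M, the light chain that CD1 molecules bind, was at 1450 and 1960 FPKM in NCI-H929 CTBP2 libraries and 1180 and 1110 FPKM with empty vector, and did not pass in both lines together (log2 fold change 0.32, limma adjusted p = 0.243). Of the 14 listed genes of the CD1 family and of lipid loading, 10 were tested and 5 rose with CTBP2 in both lines together, where 17.4% of all genes rose, with a median log2 fold change of 0.48 over the 10 against 0.04 over all genes tested. GM2A, the lipid transfer protein that helps load CD1D, was at 47.1 and 53.7 FPKM in NCI-H929 CTBP2 libraries against 18.3 and 17.7 FPKM with empty vector, and at 75.2 and 60.2 FPKM in MM.1S CTBP2 libraries against 25.6 and 25.1 FPKM with empty vector. It rose by 1.4 on the log2 scale (SE 0.11, limma adjusted p = 0.00114). CTSS, a lysosomal protease, rose by 1.56 (SE 0.17, limma adjusted p = 0.00196), and NPC2, a lysosomal sterol carrier, by 0.92 (limma adjusted p = 0.0035). LAPTM5, a lysosomal membrane protein of blood cells, rose by 0.63 (limma adjusted p = 0.0118). In NCI-H929 it was low, at 0.436 and 1.21 FPKM with CTBP2 against 0.0702 and 0.156 FPKM with empty vector. In MM.1S it was at 936 and 893 FPKM with CTBP2 against 570 and 650 FPKM with empty vector. It did not pass in MM.1S alone (0.59, limma adjusted p = 0.124). PSAP, the precursor of the saposins, had a log2 fold change of 0.67 (limma adjusted p = 0.049), which did not hold in 7 of the 8 fits that left out 1 library (adjusted p up to 0.144) or in the 6 libraries (0.159). With the lines as labelled, GM2A (adjusted p = 0.0309) and NPC2 (0.0405) passed, and CTSS (0.0844), LAPTM5 (0.933) and PSAP (0.196) did not.

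Of the 7 dendritic cell markers, CLEC9A and LAMP3 passed 1 FPKM in some library, and CLEC10A and CLEC4C were at 0 in all 8. Their sum was 2.41 to 3.03 FPKM in NCI-H929 CTBP2 libraries and 0.287 to 0.441 FPKM in NCI-H929 empty vector libraries. In MM.1S it was 4.98 to 5.97 FPKM with CTBP2 and 7.1 to 8.18 FPKM with empty vector. LAMP3 rose by 0.82 in both lines together (limma adjusted p = 0.015), but not in the 6 libraries (0.0503) or as labelled (0.257). In MM.1S LAMP3 did not pass (log2 fold change 0.3, limma adjusted p = 0.207). CLEC9A went the other way, with -0.75 in both lines together, which did not pass (limma adjusted p = 0.0677). It was lower in MM.1S (-1.51, limma adjusted p = 0.00601), at 0.59 and 1.07 FPKM with CTBP2 against 3.68 and 4.74 FPKM with empty vector. That call ended as labelled (0.136), and without MM.1S CTBP2 replicate 1 or MM.1S empty vector replicate 2. The part of other cells in the CD1 values was not tested.

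FCGR2B was at 16.8 FPKM in NCI-H929 CTBP2 replicate 1 and 27.8 FPKM in the library labelled as MM.1S CTBP2 replicate 2, against 0.669 and 0.887 FPKM in the empty vector libraries. In MM.1S it was at 3.62 FPKM in CTBP2 replicate 1 and 1.58 FPKM in the library labelled as NCI-H929 CTBP2 replicate 2, against 0.283 and 0.177 FPKM with empty vector. The lowest CTBP2 library of either line, at 1.58 FPKM, was above the highest empty vector library, at 0.887 FPKM. The means were 22.3 ± 7.78 FPKM with CTBP2 and 0.778 ± 0.154 FPKM with empty vector in NCI-H929, a ratio of 28.7, and 2.6 ± 1.44 FPKM and 0.23 ± 0.075 FPKM in MM.1S, a ratio of 11.3 (SD, n = 2 each). On the log2 scale the fold change was 3.67 (SE 0.30) in NCI-H929 and 1.49 (SE 0.30) in MM.1S. The 6 libraries gave 3.33 (SE 0.18) and 1.91 (SE 0.18), and the lines as labelled 1.93 (SE 1.1) and 3.23 (SE 1.1).

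The neighbouring low-affinity IgG receptors are near-identical in sequence, so reads could be split between them and each value is uncertain. FCGR2C was at 5.34 FPKM in NCI-H929 CTBP2 replicate 1 and 10.5 FPKM in the library labelled as MM.1S CTBP2 replicate 2, against 0.12 and 0.155 FPKM with empty vector. It rose by 1.75 in both lines together (SE 0.42, limma adjusted p = 0.0143). FCGR2A, an activating receptor, was at 1.36 and 3.05 FPKM in NCI-H929 CTBP2 libraries and 0.0596 and 0.227 FPKM with empty vector, and rose by 0.87 (limma adjusted p = 0.0306), a call that did not hold without MM.1S CTBP2 replicate 1, NCI-H929 CTBP2 replicate 1 or either NCI-H929 empty vector library (adjusted p up to 0.0891). HSPA7, a heat shock pseudogene that lies among the same receptors, was at 3.54 and 9.72 FPKM in NCI-H929 CTBP2 libraries and 0.0485 and 0.139 FPKM with empty vector. In MM.1S its groups overlapped, at 0.403 and 0.134 FPKM with CTBP2 and 0.036 and 0.135 FPKM with empty vector.

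Of the 20 listed genes of Fc receptors and their signalling, 14 were tested and 6 rose in both lines together (17.4% of all genes rose), with a median of 0.39 over the 14 against 0.04 over all genes. FCRL5, an Fc receptor relative of B and plasma cells, was at 17.5 and 27.7 FPKM in NCI-H929 CTBP2 libraries against 3.27 and 4.53 FPKM with empty vector, and at 1.3 and 0.683 FPKM in MM.1S CTBP2 libraries against 0.182 and 0.304 FPKM with empty vector. Its groups were apart in both lines and it rose by 1.45 (SE 0.31, limma adjusted p = 0.00996). INPP5D, the phosphatase SHIP1 that acts downstream of FCGR2B, was at 35.8 and 54.5 FPKM in NCI-H929 CTBP2 libraries against 26.8 and 27.4 FPKM with empty vector, and rose by 0.68 in both lines together (limma adjusted p = 0.00852). FCRLB rose by 0.52 (limma adjusted p = 0.0238), but not without replicate 1 of MM.1S with CTBP2, replicate 2 of MM.1S with empty vector, the library labelled as MM.1S CTBP2 replicate 2 or NCI-H929 empty vector replicate 2 (adjusted p up to 0.0715). FCRL1 had 0.76 (limma adjusted p = 0.0303), with 5 such libraries: replicate 1 of MM.1S with CTBP2, replicate 2 of MM.1S with empty vector, the library labelled as MM.1S CTBP2 replicate 2 and both NCI-H929 empty vector libraries (adjusted p up to 0.0865). With the lines as labelled these 6 did not pass, at adjusted p = 0.179 for FCGR2C, 0.265 for FCGR2A, 0.474 for FCRL5, 0.312 for INPP5D, 0.767 for FCRLB and 0.303 for FCRL1, and in the 6 libraries FCRLB did not (0.1). FCGR2B is itself a B cell gene; the 7 B cell markers summed to 46 to 47.9 FPKM in NCI-H929 CTBP2 libraries and 47.8 to 59.1 FPKM with empty vector. In MM.1S the sum was 29.3 to 36.4 FPKM with CTBP2 and 27.5 to 39.3 FPKM with empty vector, and 5 of the 7 stayed under 1 FPKM in all libraries. CD79B, a chain of the B cell receptor, held most of these sums and did not pass (log2 fold change -0.13, limma adjusted p = 0.52). CD79A, its partner chain, was at 0.55 and 0.837 FPKM in NCI-H929 CTBP2 libraries against 0.184 and 0.198 FPKM with empty vector, and at 1.6 and 1.18 FPKM in MM.1S CTBP2 libraries against 0.909 and 0.434 FPKM with empty vector. It rose by 0.51 in both lines together (limma adjusted p = 0.0205), but not in the 6 libraries (0.0653), as labelled (0.213), or without MM.1S CTBP2 replicate 1, replicate 2 of MM.1S with empty vector or either NCI-H929 empty vector library (up to 0.0659).

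ITGAM was highest in MM.1S with CTBP2, while CD3E, the CD1 genes and FCGR2B were highest in NCI-H929 with CTBP2. The difference of responses between the lines was not tested, and line and CTBP2 level cannot be told apart. ITGAM was at 4.14 FPKM in MM.1S CTBP2 replicate 1 and 2.21 FPKM in the library labelled as NCI-H929 CTBP2 replicate 2, against 0.17 and 0.218 FPKM in MM.1S empty vector libraries. The means were 3.17 ± 1.36 FPKM with CTBP2 and 0.194 ± 0.0338 FPKM with empty vector (SD, n = 2 each), a ratio of 16.3 and a log2 fold change of 1.77 (SE 0.27). In NCI-H929 it was at 0.165 FPKM in CTBP2 replicate 1 and 0.917 FPKM in the library labelled as MM.1S CTBP2 replicate 2, against 0 and 0.0588 FPKM with empty vector. Those CTBP2 libraries differed by 5.57 times, so the higher mean rests on the library labelled as MM.1S CTBP2 replicate 2: the log2 fold change was 0.54 (SE 0.27) with it and 0.18 (SE 0.15) in the 6 libraries, and 0.91 (SE 0.62) with the lines as labelled. In MM.1S the 6 libraries gave 2.1 (SE 0.15) and the lines as labelled 1.39 (SE 0.62).

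ITGB2, the beta chain with which ITGAM forms Mac-1, stayed at or under 0.146 FPKM in all 8 libraries. ITGAX and ITGAD, alpha chains of the same family beside ITGAM, peaked at 0.31 and 0.0134 FPKM. Of the 12 listed integrin genes and partners, 9 were tested and 1 rose in both lines together, where 17.4% of all genes rose. This was ICAM1, a ligand of Mac-1, which rose by 0.66 (limma adjusted p = 0.0257). It was at 37.6 and 28.4 FPKM in NCI-H929 CTBP2 libraries against 25.6 and 21.4 FPKM with empty vector, and at 21.4 and 23.3 FPKM in MM.1S CTBP2 libraries against 8.79 and 15.9 FPKM with empty vector. The call did not hold without MM.1S CTBP2 replicate 1, NCI-H929 CTBP2 replicate 1, NCI-H929 empty vector replicate 2 or the library labelled as NCI-H929 CTBP2 replicate 2 (adjusted p up to 0.0696), nor with the lines as labelled (0.202).

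LY86 was also highest in MM.1S with CTBP2. It was at 17.8 FPKM in MM.1S CTBP2 replicate 1 and 7.77 FPKM in the library labelled as NCI-H929 CTBP2 replicate 2, against 2.93 and 1.09 FPKM with empty vector. The groups did not overlap, though libraries within a group differed by more than 2 times. The means were 12.8 ± 7.09 FPKM with CTBP2 and 2.01 ± 1.31 FPKM with empty vector (SD, n = 2 each), a ratio of 6.36 and a log2 fold change of 2.16 (SE 0.39), or 2.71 (SE 0.34) with the 6 libraries and 1.24 (SE 1.11) with the lines as labelled. In NCI-H929 it was at 0.769 FPKM in CTBP2 replicate 1 and 1.45 FPKM in the library labelled as MM.1S CTBP2 replicate 2, and listed at 0 in both empty vector libraries. The strand setting of the counting is not given in the sources used here, and the antisense gene LY86-AS1 was at or under 0.17 FPKM in all libraries.

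CD180, the receptor that MD-1 stabilises, was low where LY86 was high. It was at 0.749 and 1.4 FPKM in NCI-H929 CTBP2 libraries against 0.189 and 0.233 FPKM with empty vector, and at 0.0695 and 0.0198 FPKM in MM.1S CTBP2 libraries and listed at 0 in MM.1S empty vector libraries. LY96, which encodes MD-2, the relative of MD-1 that serves TLR4, was at 21.7 and 16.4 FPKM in NCI-H929 CTBP2 libraries against 3.13 and 4.16 FPKM with empty vector. In MM.1S it was at 59 and 49.4 FPKM with CTBP2 and 24 and 28.3 FPKM with empty vector. LY96 rose by 1.56 in both lines together (SE 0.22, limma adjusted p = 0.00363).

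Of the 15 listed Toll-like receptor genes and relatives, 8 were tested and 5 rose, where 17.4% of all genes rose, with a median log2 fold change of 0.69 over the 8 against 0.04 over all genes. TLR4, the receptor for bacterial lipopolysaccharide, rose by 0.98 (SE 0.17, limma adjusted p = 0.00571), with 6.03 and 5.26 FPKM in NCI-H929 CTBP2 libraries against 1.46 and 2.16 FPKM with empty vector. The lipopeptide receptor subunits TLR1 and TLR6 rose by 1.35 (limma adjusted p = 0.00407) and 0.95 (limma adjusted p = 0.00471). UNC93B1, the chaperone of endosomal Toll-like receptors, rose by 0.42 (limma adjusted p = 0.0195), but not without MM.1S CTBP2 replicate 1 or NCI-H929 empty vector replicate 1 (adjusted p up to 0.0593) or in the 6 libraries (0.0983). With the lines as labelled none of the 5 passed, at adjusted p = 0.208 for LY96, 0.071 for TLR4, 0.0682 for TLR1, 0.402 for TLR6 and 0.843 for UNC93B1.

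Of the 9 myeloid markers, S100A9 and CD68 passed 1 FPKM in some library, and 7 were under it in all. Their sum was 32 to 45.6 FPKM in NCI-H929 CTBP2 libraries against 17.9 to 24.5 FPKM with empty vector, and 16.4 to 27.2 FPKM in MM.1S CTBP2 libraries against 12.4 to 13.2 FPKM with empty vector. S100A9, a calcium-binding protein of neutrophils and monocytes, was at 4.52 and 2.25 FPKM in MM.1S CTBP2 libraries against 0.835 and 0.44 FPKM with empty vector. In NCI-H929 it was at 0.361 and 0.461 FPKM with CTBP2 against 0 and 0.134 FPKM with empty vector. It did not pass in that line (log2 fold change 0.41, limma adjusted p = 0.23). S100A9 rose by 0.89 in both lines together (limma adjusted p = 0.0203), but not without MM.1S empty vector replicate 2 (0.0601) or as labelled (0.303). CD68, a lysosomal protein of macrophages, rose by 0.68 (limma adjusted p = 0.0243), but not as labelled (0.343) or without replicate 1 of NCI-H929 with either vector, replicate 1 of MM.1S with CTBP2 or replicate 2 of MM.1S with empty vector (up to 0.0766). The part of other cells in the ITGAM and LY86 values was not tested.

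MILR1 had the highest level of the 8 genes in NCI-H929 with empty vector. It was at 7.25 FPKM in NCI-H929 CTBP2 replicate 1 and 12 FPKM in the library labelled as MM.1S CTBP2 replicate 2, against 3.48 and 4.6 FPKM with empty vector. In MM.1S it was at 8.65 FPKM in CTBP2 replicate 1 and 3.3 FPKM in the library labelled as NCI-H929 CTBP2 replicate 2, against 0.497 and 0.259 FPKM with empty vector. CTBP2 libraries lay above empty vector libraries within each line, but the MM.1S CTBP2 libraries overlapped the NCI-H929 empty vector libraries. The ratio of means was 2.38 in NCI-H929 and 15.8 in MM.1S, from 9.62 ± 3.35 FPKM against 4.04 ± 0.792 FPKM and 5.98 ± 3.78 FPKM against 0.378 ± 0.168 FPKM (SD, n = 2 each). The log2 fold changes were 1.05 (SE 0.37) in NCI-H929 and 2.23 (SE 0.37) in MM.1S. They were 0.72 (SE 0.22) and 2.81 (SE 0.22) with the 6 libraries, and 0.25 (SE 0.37) and 3.03 (SE 0.37) with the lines as labelled.

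Mast cell markers, which include the receptor KIT and the tryptases, summed to at most 0.127 FPKM in any library, so the cell type in which MILR1 is best known had no marker over 1 FPKM. PTPN6, the phosphatase SHP-1 that inhibitory receptors recruit, was at 146 and 108 FPKM in NCI-H929 CTBP2 libraries against 109 and 103 FPKM with empty vector, and at 46.2 and 34.6 FPKM in MM.1S CTBP2 libraries against 62.1 and 55.3 FPKM with empty vector. It did not pass in both lines together (log2 fold change -0.15, limma adjusted p = 0.562). Of a list of 17 genes of inhibitory receptors and the phosphatase PTPN11, 9 were tested and 2 rose in both lines together, where 17.4% of all genes rose. CEACAM1, an adhesion receptor, was at 7.3 and 22.2 FPKM in NCI-H929 CTBP2 libraries against 0.0857 and 0.517 FPKM with empty vector, and at 9.34 and 4.4 FPKM in MM.1S CTBP2 libraries against 0.765 and 0.491 FPKM with empty vector. It rose by 2.82 (SE 0.38, limma adjusted p = 0.00282). SIRPA, the macrophage receptor for CD47, rose by 0.85 (limma adjusted p = 0.00453). As labelled, CEACAM1 passed (adjusted p = 0.0309) and SIRPA did not (0.714).

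**Figure D3:**
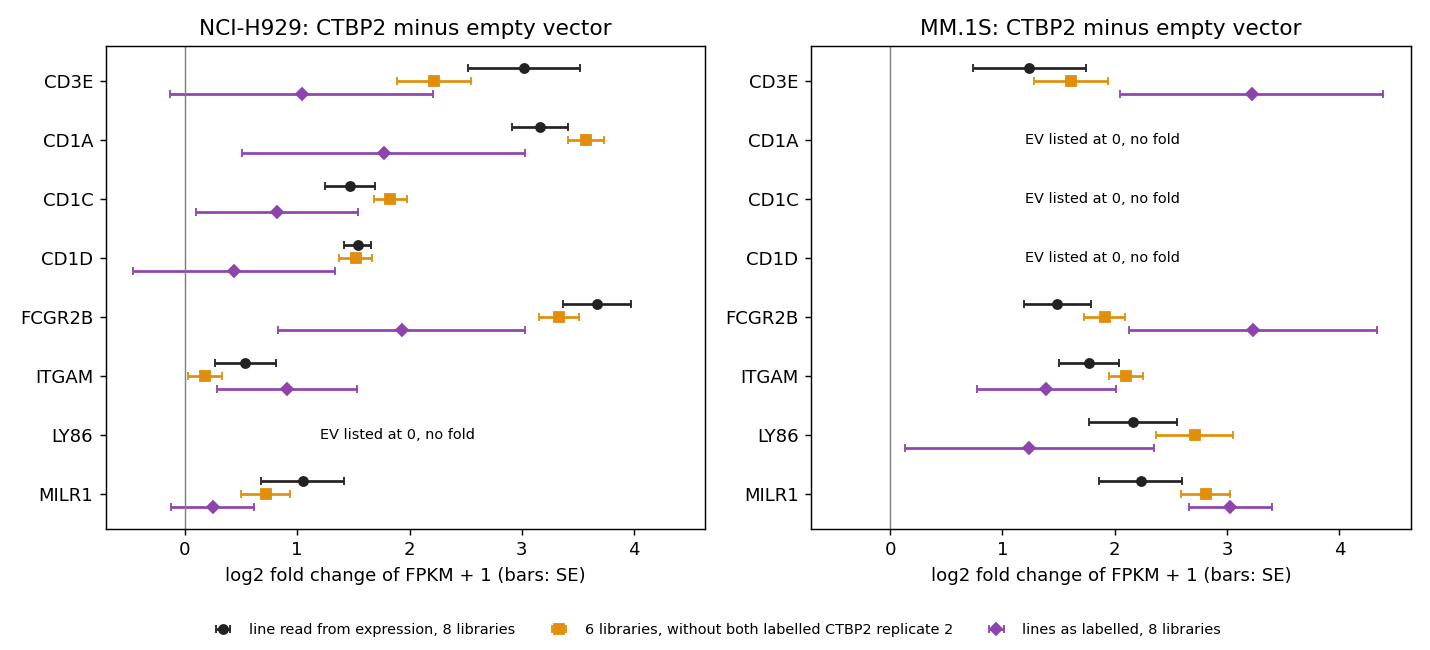
Log2 fold change (FPKM + 1) of each gene, CTBP2 over empty vector, in NCI-H929 (left) and MM.1S (right), from all 8 libraries with the line read from expression (black), the 6 libraries without both labelled CTBP2 replicate 2 (orange) and the lines as labelled (purple); bars are SE, and genes whose empty vector libraries are listed at 0 have no point. The values stayed above 0, and the purple bars are the widest for most genes.

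The empty vector libraries also set the lines side by side without CTBP2. Their values entered the choice of the 8 genes, so the genes are described here without a test, while over all genes tested 50.8% differed between the lines (22.1% higher and 28.7% lower in NCI-H929). MILR1 averaged 4.04 ± 0.792 FPKM in NCI-H929 and 0.378 ± 0.168 FPKM in MM.1S (SD, n = 2 each), with both NCI-H929 libraries above both MM.1S libraries. CD1D was at 0.568 and 0.536 FPKM in NCI-H929 and listed at 0 in MM.1S, and LY86 was listed at 0 in NCI-H929 and at 2.93 and 1.09 FPKM in MM.1S. CD3E, at 2.1 and 3.65 FPKM in NCI-H929 and 1.33 and 0.527 FPKM in MM.1S, and FCGR2B, at 0.669 and 0.887 FPKM in NCI-H929 and 0.283 and 0.177 FPKM in MM.1S, were also apart. CD1A and CD1C were at or under 0.28 FPKM in NCI-H929 and listed at 0 in MM.1S. ITGAM was at 0 and 0.0588 FPKM in NCI-H929, against 0.17 and 0.218 FPKM in MM.1S.

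By mean level the order in NCI-H929 CTBP2 libraries was CD3E, FCGR2B, CD1A, MILR1, CD1D, CD1C, LY86 and ITGAM. CD3E and FCGR2B overlapped there, at 16.7 to 53.1 and 16.8 to 27.8 FPKM, as did CD1A and MILR1, and LY86 and ITGAM. The other neighbours in that order were apart, FCGR2B lying above CD1A, MILR1 above CD1D, CD1D above CD1C and CD1C above LY86. In MM.1S CTBP2 libraries the order was LY86, MILR1, CD3E, ITGAM, FCGR2B and CD1A, with CD1C and CD1D at or near 0. LY86 and MILR1 overlapped, at 7.77 to 17.8 and 3.3 to 8.65 FPKM, and MILR1, CD3E, ITGAM and FCGR2B each overlapped the next. With empty vector the highest means were those of MILR1 and CD3E in NCI-H929, at 4.04 and 2.88 FPKM, and of LY86 and CD3E in MM.1S, at 2.01 and 0.929 FPKM.

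The genes whose profile over the 8 libraries came closest were found by the root mean square difference of the centred log2(FPKM + 1) values, a description without a test. For CD3E these were the histone gene HIST1H2AC (0.267), GSN (0.441) and the histone gene HIST1H2BD (0.465). HIST1H2AC was also the closest to FCGR2B (0.39), followed by HIST1H2AI (0.476) and FCGR2C (0.482), and HIST1H2BC was the closest to CD1A (0.261). HIST1H2AC was at 49.4 FPKM in NCI-H929 CTBP2 replicate 1 and 102 FPKM in the library labelled as MM.1S CTBP2 replicate 2, against 7.36 and 12.2 FPKM with empty vector. For CD1C they were DSG1-AS1 (0.11), LILRA2 (0.158) and HM13-AS1 (0.178), and for CD1D they included ST6GALNAC5 (0.141) and HIST3H2BB (0.142). ITGAM came closest to GBP4 (0.204), RHOXF1 (0.243) and S100A9 (0.272), and LY86 to SPTLC3 (0.351), HIVEP1 (0.463) and CDC42BPA (0.469). MILR1 came closest to CTSS (0.39), ATP2B4 (0.407) and CPQ (0.426).

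Transcription factors of the blood lineages were followed through a list of 20, of which 12 were tested. In both lines together 5 rose and 2 fell, where 17.4% of all genes rose and 16.7% fell, with a median of 0.01 over the 12 against 0.04 over all genes. RUNX1, a factor of blood stem and myeloid cells, was at 21.4 FPKM in both NCI-H929 CTBP2 libraries against 8.94 and 7.25 FPKM with empty vector, and at 15.8 and 12.1 FPKM in MM.1S CTBP2 libraries against 5.3 and 4.36 FPKM with empty vector. It rose by 1.33 (SE 0.12, limma adjusted p = 0.00137). SPI1, which encodes PU.1, was at 18.1 and 17.9 FPKM in NCI-H929 CTBP2 libraries against 12.2 and 11.5 FPKM with empty vector, and at 24.6 and 26.8 FPKM in MM.1S CTBP2 libraries against 10.3 and 10 FPKM with empty vector. It rose by 0.91 (SE 0.15, limma adjusted p = 0.00469). BCL6, the germinal centre repressor, rose by 0.8 (limma adjusted p = 0.00545) and was under 1 FPKM in all empty vector libraries. GATA3 was higher (0.45, limma adjusted p = 0.0322), and CEBPB (-0.76, limma adjusted p = 0.0324) and GFI1 (-0.57, limma adjusted p = 0.0381) were the 2 that fell. Each of these 3 calls ended in 6 of the 8 fits that left out 1 library, and those of GATA3 and GFI1 in the 6 libraries. CEBPA did not pass in both lines together (-0.35, limma adjusted p = 0.121). In NCI-H929 CEBPA was lower with CTBP2 (-0.69, limma adjusted p = 0.0119), but not as labelled (0.284) or without NCI-H929 empty vector replicate 1. Of the named factors, RUNX1 (adjusted p = 0.0468), SPI1 (0.045) and BCL6 (0.0483) also passed with the lines as labelled, and GATA3 (0.643), CEBPB (0.287) and GFI1 (0.393) did not.

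Over the 7 lists together, 66 of the 114 genes in the table were tested, and 25 rose and 2 fell with CTBP2 in both lines together (17.4% and 16.7% of all genes did), with a median of 0.32 against 0.04 over all genes. Of these 27, 17 passed in every fit that left out 1 library. The 6 libraries gave 21 higher and 1 lower, and the lines as labelled 6 higher, against 15 at an unadjusted p under 0.05. In NCI-H929 27 were higher and 2 lower (32.9% of all genes were called, 18.3% higher and 14.6% lower), 13 of them in every fit that left out 1 library. In MM.1S 9 were higher and 1 lower (5.47% of all genes were called, 3.67% higher and 1.8% lower), each lost in at least 1 such fit. The lists were chosen with earlier results of these data known, so nothing is read from an excess over the share of all genes.

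**Figure D4:**
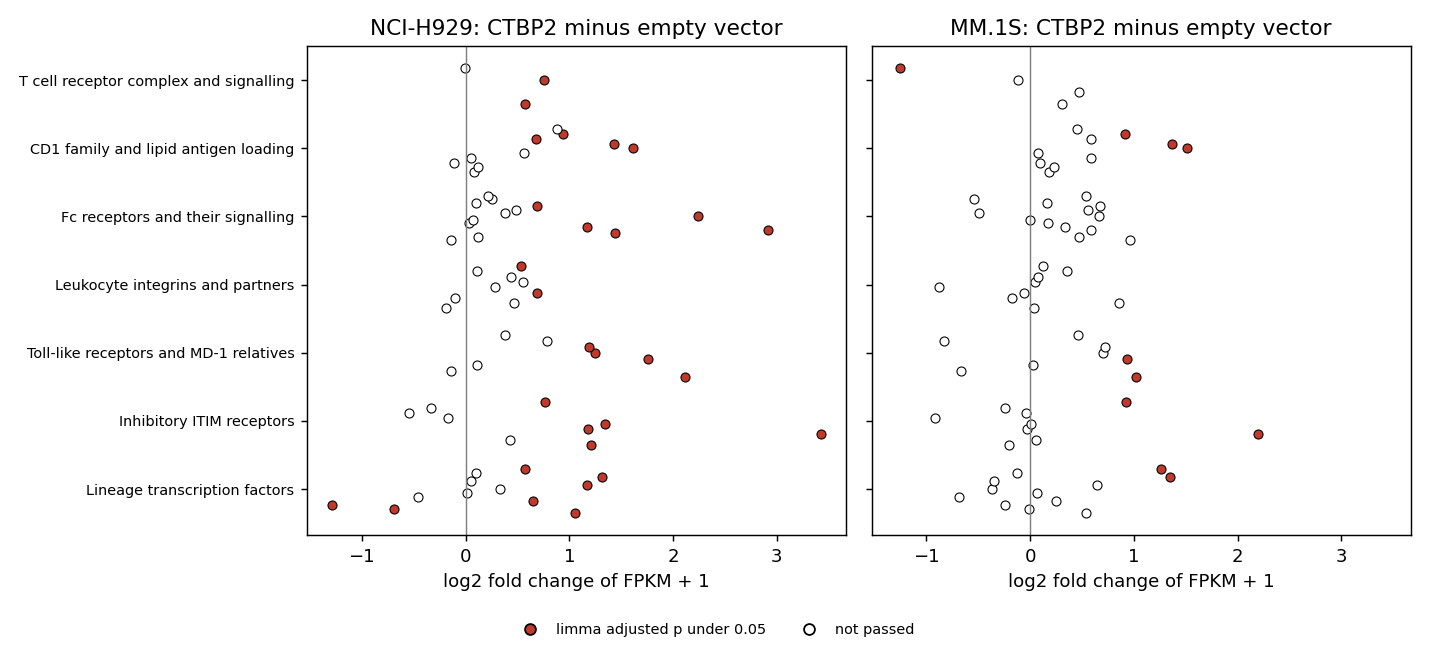
Log2 fold change (FPKM + 1) of each tested gene of the 7 lists, CTBP2 over empty vector, in NCI-H929 (left) and MM.1S (right); filled points had a limma adjusted p under 0.05, and genes whose empty vector libraries are listed at 0 are left out. Most filled points lie to the right of 0, 27 against 2 in NCI-H929 and 9 against 1 in MM.1S.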

How the data were processed

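Libraries of 8 cultures were made with a TruSeq kit, per the labels' protocols. The build GRCh37 (hg19) and the tools STAR 2.6.0b-1, HTSeq 0.9.1, Trimmomatic 0.36.5, FastQC 0.11.7 and DESeq2 2.11.40.2 come from the submitters' processing notes, which give no order. The deposited values are FPKM per gene made by the authors, and the tool that made them is not given in the sources used here. Depth was read from the spacing of low values, of which 57.3 to 68.4% came out whole within 0.1 fragments, so no count test was run. The 12583 of 25906 genes that reached 1 FPKM in 2 or more libraries were tested on log2(FPKM + 1) with limma 3.58.1 in R 4.3.3 (eBayes with a trend, Benjamini-Hochberg adjusted p under 0.05, all two-sided). Both lines together used line and vector as terms, and the other comparisons a fit of 4 group means, with line read from expression and vector from the labels. Nothing states how the duplicates were grown, so p-values measure only the spread between these libraries.

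The 8 genes, the lists and the marker lists were chosen with earlier results of these data known. Named genes are the 8 genes with every library, up to 4 called genes per list by smallest p, the 3 closest profiles and the nearest genes in RefSeq order; MPZL3, PSAP, FCGR2A, FCRL1, UNC93B1, PTPN6 and the partners of each gene were added after their values were seen. Some genes that met the rule are left out here. Of the 14 genes of the CD1 list, 13 were in the table. Promoters are from RefSeq (GRCh38.p14), another build than the files, and were matched by symbol. The code was tested on simulated data. Alternatives were a pseudocount of 0.1, no filter, median-of-ratios scaling, equal totals without immunoglobulin genes and CTBP2, no trend, the replicate number as a block, each library left out, leaving out both libraries labelled CTBP2 replicate 2, and lines as labelled.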

Additional observations from a re-analysis of the deposited data

How the results depend on the processing

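With the lines as labelled, called genes numbered 420 of the 12583 tested in both lines together, 7 in NCI-H929, 3 in MM.1S and 5 between the lines with empty vector (baseline), against 4287, 4138, 688 and 6395 with the line read from expression. Without both libraries labelled CTBP2 replicate 2 they numbered 1929 in NCI-H929 and 1429 in MM.1S. In MM.1S no filter gave 384 and the replicate block 412. Same-numbered CTBP2 and empty vector libraries of a line read from expression deviated together (r = 0.452 in NCI-H929 and 0.435 in MM.1S), but the labels tie the numbers to nothing and across lines the signs were mixed. The block gave 3717 in both lines together, 3614 in NCI-H929 and 6140 at baseline. Leaving out 1 library gave 2458 to 4441 in both lines together, 954 to 5127 in NCI-H929, 16 to 1420 in MM.1S and 4599 to 7072 at baseline. The lowest MM.1S count came without MM.1S CTBP2 replicate 1 and the lowest in NCI-H929 without its empty vector replicate 1. Equal totals moved the median of all genes to 0.271 in both lines together, 0.358 in NCI-H929, 0.14 in MM.1S and -0.27 at baseline, against 0.035, 0.046, 0 and -0.102, and higher and lower calls to 3809 and 869, 3921 and 634, 590 and 97, and 1957 and 4194, against 2186 and 2101, 2298 and 1840, 462 and 226, and 2778 and 3617. Median-of-ratios scaling gave 1968 and 2450, 1926 and 2415, 449 and 232, and 3205 and 3122. Of the 24 fold changes of the 8 genes with CTBP2, none turned its direction under the alternatives run (CD1D in MM.1S was 0 in most); the lines as labelled moved 16, the 6 libraries 8, a pseudocount of 0.1 moved 17 and either scaling 2 by more than their residual spread. In both lines together CEBPB and GFI1 lost their calls under equal totals, GATA3 under the block, PSAP under median-of-ratios scaling, and CEBPB, GFI1, PSAP, FCGR2A, FCRL1, FCRLB, ICAM1, CD68 and S100A9 with no filter. In NCI-H929 CEBPA lost its call under equal totals, and CD38 and LAT with no filter. The causes of these changes were not tested. Few fragments lie behind values under 1 FPKM, so a gene listed at 0 may be present below this depth.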
